A study of Zea mays with 6 samples.

Results

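The genes described here are those whose transcript level was strongly reduced in young maize tassels carrying Bif1 and Bif4, from genes with hardly a read left to genes near 0.25 of the wildtype level. The tassel is the male inflorescence of maize. There were 3 wildtype libraries and 3 libraries from plants heterozygous for both mutations (called Bif1;Bif4), all in the B73 inbred background, grown in a greenhouse and harvested when the tassel was 2 to 4 mm long. Each wildtype library pooled 5 tassels and each Bif1;Bif4 library pooled 10. Both mutations are dominant. They alter Aux/IAA proteins, which hold auxin responses in check, and plants carrying them make fewer branches and spikelets. The genes were chosen by their normalized counts in these same 6 libraries: a gene was kept where every wildtype library held at least 30 normalized counts, where every Bif1;Bif4 library lay below every wildtype library, and where F was at most 0.25. F is the Bif1;Bif4 mean plus 1 divided by the wildtype mean plus 1. A normalized count is the number of reads of a gene divided by a size factor of its library. Of 39305 genes and microRNA rows in the table, 109 were kept, after 8 genes, among them ra3, ra1, BA1, baf1 and bd1, had been left out by name. Of those 8, 7 met the conditions, and GRMZM2G307119 did not, with 16.5 normalized counts in wildtype replicate 3. F alone was at most 0.25 for 0.798% of tested genes.

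The fall of these genes in Bif1;Bif4 is what chose them, so their levels are given as a description and no test is made of them. In bulk tissue, fewer cells of a type and less RNA in each cell cannot be told apart. Of the 109, 20 carry an informative name in the RefSeq gene table. The other 89 are given by identifier only, with no role.

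As background, a tassel meristem makes small outgrowths on its flanks, and each becomes a branch or a spikelet pair. Boundary genes of the NAC family act where an outgrowth separates from its neighbour. YABBY genes mark lateral organs and not the meristem itself. WOX3 homeobox genes act at the margins of lateral organs. Ovate family proteins are repressors of transcription that shape organs.

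Over the 109 genes F ran from 0.016 to 0.248 with a median of 0.153, while its median over the 21924 genes tested was 1. F was at most 0.05 for 13 genes, over 0.05 and up to 0.1 for 13, over 0.1 and up to 0.2 for 51, and higher for 32. Wildtype means ran from 39.8 to 6495 normalized counts with a median of 146, and Bif1;Bif4 means from 0.324 to 1543 with a median of 20.9. Most of the genes were thus reduced to a low level and not to 0. At least 10 reads remained in every Bif1;Bif4 library for 68 of them, 9 had at most 3 reads in every Bif1;Bif4 library, and none had 0 reads in all of them. The lowest wildtype value was 1.08 to 63.4 times the highest Bif1;Bif4 value, at least 4 times for 52 genes and under 1.5 times for 4.

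**Figure D1:**
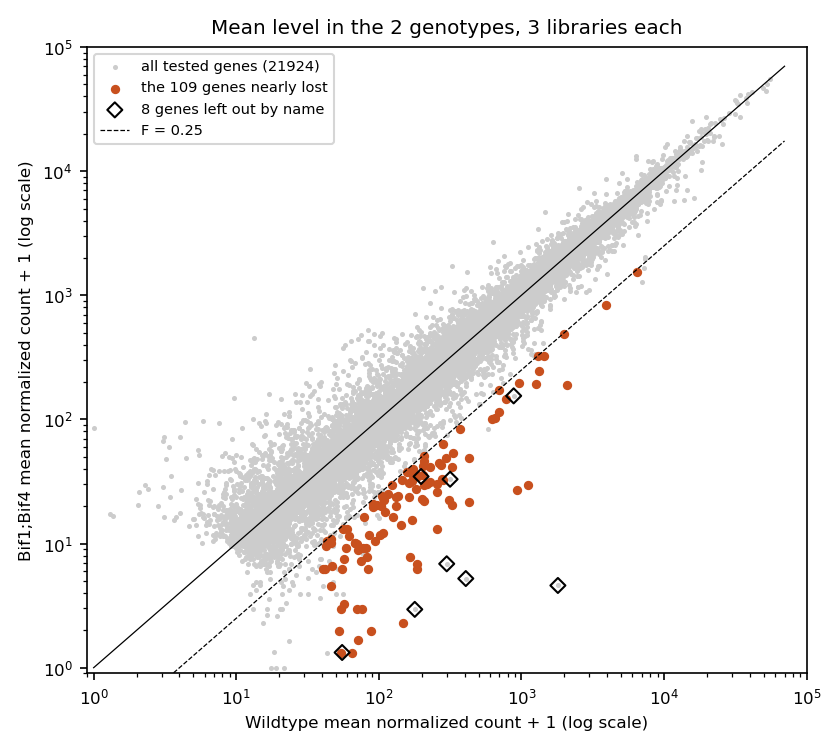
Mean normalized count plus 1 of each gene in the 3 wildtype libraries (x axis, log scale) and the 3 Bif1;Bif4 libraries (y axis, log scale). Grey points are the 21924 tested genes, filled points the 109 genes kept, and diamonds the 8 genes left out by name. The kept genes lie below the dashed line of F = 0.25 over the whole range of wildtype levels from 39.8 to 6495.

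The limit on F cuts through a continuous range. The genes closest inside were GRMZM5G842645 at 0.248, GRMZM2G117854 at 0.247 and GRMZM2G122172 at 0.246. The closest outside that met the other conditions were bHLH114 (GRMZM2G095899), which missed the limit in the fourth decimal place or beyond, GRMZM2G082520 at 0.253 and GRMZM2G068917 at 0.255. A further 308 genes met the same conditions with F over 0.25 and up to 0.5. On the wildtype minimum, GRMZM2G124663 was closest inside with a lowest wildtype value of 31.1, and GRMZM2G371079 closest outside at 29.9.

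With limma across all genes, 2.91% of tested genes were lower in Bif1;Bif4 at an adjusted p under 0.05, and groups did not overlap in that direction for 14.2%. All 109 genes passed the filter on low values and 93 of them were called. On recovered reads, edgeR called 89 of them beside 2.87% of tested genes, and DESeq2 108 beside 5.1%. Since the same contrast chose the genes, nothing is read from that count. The 16 that were not called include DL1, yab14, SGR2, plt1 and TIFY15, and wildtype replicate 2 stood at a median of 3.66 times the mean of the other wildtype libraries in those 16.

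Markers of the labelled tissue were present in every library. Libraries are given in the order of replicates 1, 2 and 3 throughout. The meristem gene kn1 (knotted1) had normalized counts of 9018, 8630 and 9258 in wildtype, against 7882, 6797 and 7064 in Bif1;Bif4. The summed level of 14 matched markers of inflorescence meristem and spikelet was 40656 to 43842 in wildtype and 39886 to 44730 in Bif1;Bif4, with 6 called lower and 1 higher. Over all tested genes 2.91% were called lower and 2.13% higher. For 7 leaf photosynthesis markers it was 1040 to 1169 and 1138 to 1498, with 0 called in either direction. For 5 pollen and tapetum markers it was 2771 to 3270 and 2001 to 2156, and 3 of those 5 had at most 3 reads in every library. Only 1 of the 5 passed the filter on low values, and it was called lower. For 5 epidermis markers it was 6104 to 7116 and 5508 to 5895, with 1 called lower. The symbol ocl4 was on both the epidermis list and the pollen and tapetum list, so both calls may be of the same gene. For 5 vascular and secondary wall markers it was 38.5 to 97 and 78.5 to 93.9, where 97 was wildtype replicate 2. Of those 5, 3 had at most 3 reads in every library and only 2 passed the filter on low values. The part of these differences in the results was not tested.

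Wildtype replicate 2 stands apart, so its values are set against the others throughout. It held the highest of the wildtype values for 75 of the 109 genes, or 68.8%, against 35.1% of all tested genes. It was at least 2 times both other wildtype libraries for 25 genes, or 22.9%, against 3.53% of tested genes and 13.3% of the 308 genes with F up to 0.5. Both other wildtype libraries exceeded it by at least 25% for 17 genes, against 6.26% of tested genes. Wildtype libraries therefore differed more in these genes than in most, with a median coefficient of variation of 29.6% against 11.5%. The wildtype values took part in the choice of genes, so these shares are descriptive.

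**Figure D2:**
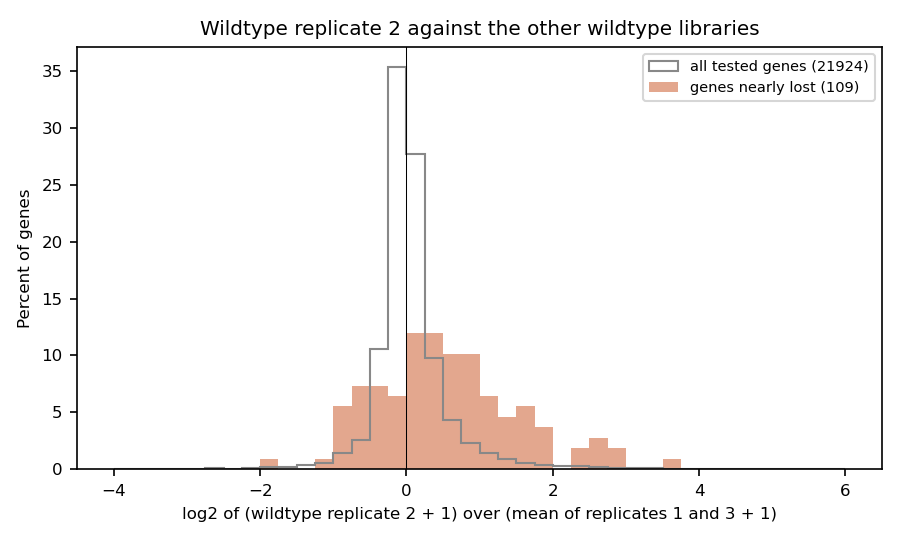
Histogram of the log2 ratio of wildtype replicate 2 to the mean of wildtype replicates 1 and 3, each plus 1, as a percent of genes. The outline is all 21924 tested genes and the filled bars the 109 genes kept. The tested genes centre near 0, whereas the kept genes spread to both sides with 75 of 109 highest in replicate 2.

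Without wildtype replicate 2 the same rule kept 90 genes, of which 79 were among the 109. Of the 109, 30 then had F over 0.25, and the highest F was 0.559. Named genes among the 30 were yab14, EREB93, yab9, CUC2, YAB5, plt1, dxs1 and TIFY15. Over all 6 ways of leaving out a library, 70 of the 109 genes met the rule every time, among them MPAO, OFP28, DL1, OFP32, TAB2, SGR2, MYBR113, ns1, HB127 and zmm6.

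The rule was also applied to 5 libraries at a time. The library left out took no part, but the group it is set against did, so the counts still carry the choice and are a description. It lay on its own group's side for 138 of 138 genes with wildtype replicate 1 held out, for 89 of 90 with wildtype replicate 2 and for 134 of 140 with wildtype replicate 3. With Bif1;Bif4 replicates 1 to 3 held out it did so for 115 of 115, 110 of 111 and 121 of 122 genes. With the held-out library as its group's only value and all 3 libraries of the other group, F was at most 0.25 for 58.7%, 76.7% and 55% of the genes with wildtype replicates 1 to 3 held out, and for 79.1%, 80.2% and 73.8% with Bif1;Bif4 replicates 1 to 3.

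**Figure D3:**
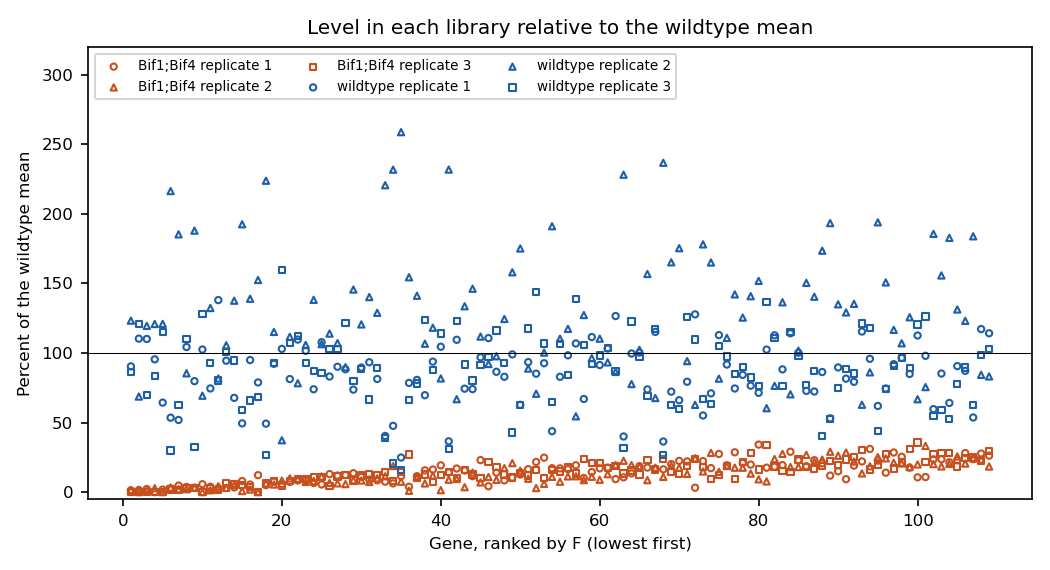
Value of each library as a percent of the gene's wildtype mean (y axis) for the 109 genes ranked by F (x axis). Bif1;Bif4 libraries lie along the bottom and rise with rank by construction, with a median of 14.2% of the wildtype mean remaining. Wildtype replicate 2 (triangles) holds most of the high wildtype values.

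The genes closest to complete loss have no name in RefSeq. GRMZM2G066142 was at 132, 180 and 126 normalized counts in the wildtype pools against 1.94, 1.99 and 0 in Bif1;Bif4, which is 439 against 4 reads. Its wildtype level was 112 times that of Bif1;Bif4, with an exact 95% interval from read counts of 43.8 to 417. GRMZM5G805732 was at 70.5, 43.9 and 77.4 in wildtype, and a single read was found over the Bif1;Bif4 libraries. The ratio of 197 for that gene has an interval of 34.1 to 7645, so its size is not resolved. These intervals cover counting error only. Both genes were picked as extreme from the same reads, so the intervals may not reach their stated coverage.

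GRMZM2G135536 was at 95.8, 104 and 60.9 in the wildtype pools against 1.94, 0.993 and 0 in Bif1;Bif4. GRMZM2G106950 stood at 67.2, 85.1 and 58.8 against 0, 1.99 and 0. GRMZM6G267785 was at 34.1, 64.1 and 60.9 against 0.972, 0 and 0. In all 5 of these genes every Bif1;Bif4 value was under the 2.92 to 2.98 normalized counts that a count of 0 allows. That the groups did not overlap is set by the rule.

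GRMZM2G071157 kept a little more, with 193, 158 and 204 in wildtype and 6.8, 3.97 and 4.89 in Bif1;Bif4. GRMZM2G054795 was at 146, 344 and 59.8 against 5.83, 5.96 and 5.87, so its Bif1;Bif4 libraries were close together while wildtype spread widely. GRMZM2G155686 had 484, 1729 and 585 in wildtype, with the high value in replicate 2, and 43.7, 19.9 and 13.7 in Bif1;Bif4, which is 2.76% of the wildtype mean. In the 9 genes with at most 3 reads in every Bif1;Bif4 library, wildtype replicate 2 lay at 0.594 to 1.73 times the mean of the others.

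Some of the most reduced genes are neighbours. The RefSeq table of the assembly Zm-B73-REFERENCE-NAM-5.0 gives the order of genes along the chromosome, and 77 of the 109 could be placed in it. GRMZM2G066049 and GRMZM2G066142 are adjacent, and GRMZM2G135536 lies 2 places before them with an unmeasured small nuclear RNA gene between. GRMZM2G066049 was at 44, 85.1 and 38.2 in the wildtype pools against 6.8, 0 and 0 in Bif1;Bif4. All 3 genes of this run had 0 reads in Bif1;Bif4 replicate 3 and at most 6.8 normalized counts in the others. The measured genes on either side did not share this. GRMZM2G066165, next after the run, was at 239, 207 and 256 in the wildtype pools against 268, 238 and 208 in Bif1;Bif4. The gene before it, listed as D53 (GRMZM2G109674), was at 1122, 1617 and 1485 against 1056, 819 and 1118. Whether the 3 neighbours are copies that share reads was not tested, as no sequence was used.

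GRMZM2G064628 lies 3 places from ra1 (ramosa1), a zinc finger gene that limits branching in the inflorescence. It was at 52.8, 35.7 and 66 in the wildtype pools against 2.92, 0 and 0 in Bif1;Bif4. The left-out gene ra1 was at 178, 230 and 125 against 4.86, 0.993 and 0. GRMZM2G178522, which lies between them, was at 511, 522 and 648 in the wildtype pools against 541, 499 and 498 in Bif1;Bif4, so the low level was not shared by every gene of the stretch. Within wildtype the order of libraries differed between ra1, highest in replicate 2, and GRMZM2G064628, lowest there.

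In another stretch OFP28 and GRMZM2G392918 lie 4 places apart. GRMZM2G392918 was at 235, 138 and 239 in the wildtype pools against 34, 35.8 and 33.3 in Bif1;Bif4. Between them GRMZM2G430871, too low for the rule, was at 22, 8.24 and 7.22 against 0, 0.993 and 4.89. GRMZM2G177929 and GRMZM2G177883 lie 3 places apart and kept 25.3, 14.9 and 17.6 and 9.72, 10.9 and 7.83 normalized counts in Bif1;Bif4. Counting each gene with the next of these genes along the chromosome, those left out by name included, 5 pairs were within 4 places. Of the 77 of the 109 that could be placed, 8 were in such a pair. The share for other genes was not tested.

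**Figure D4:**
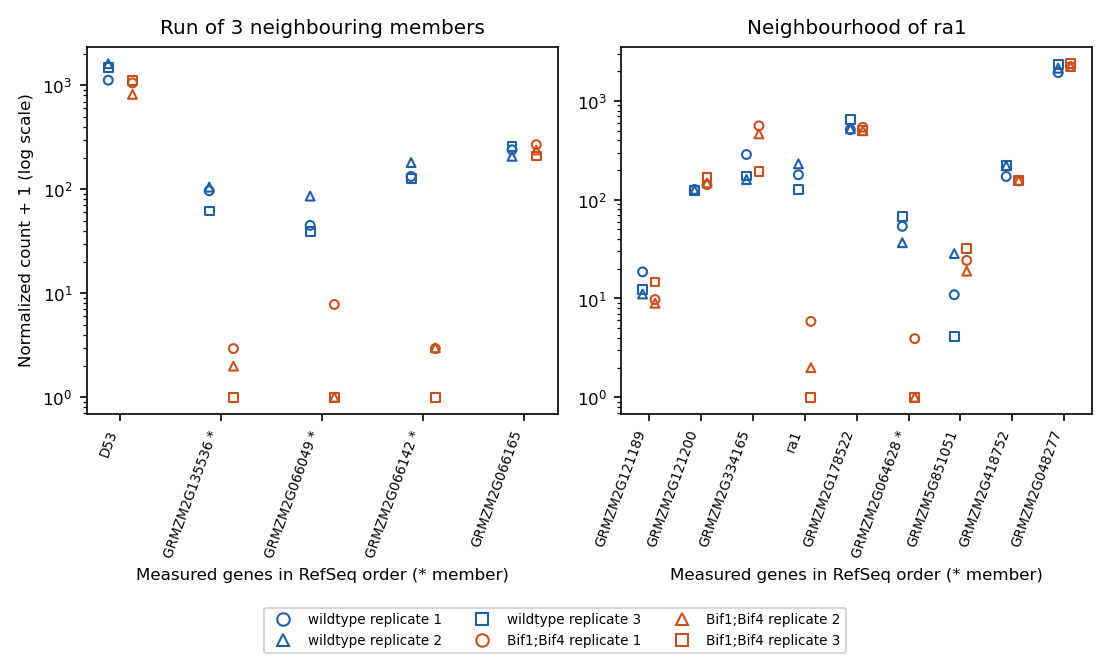
Normalized count plus 1 (log scale) of measured genes in RefSeq order around the run of 3 neighbouring genes (left) and around ra1 (right), with 1 symbol per library. Asterisks mark genes among the 109. The starred genes and ra1 drop to at most 6.8 normalized counts in Bif1;Bif4 while GRMZM2G066165 and GRMZM2G178522 are at 207 or more in every library.

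Among the named genes, the ovate family gene OFP28 (GRMZM2G122709) was the steadiest in wildtype, at 154, 172 and 164 normalized counts. It was at 4.86, 4.97 and 10.8 in Bif1;Bif4, which is 4.2% of the wildtype mean, and 4.31% without wildtype replicate 2. OFP32 (GRMZM2G133311) was at 37.4, 51.3 and 46.4 against 5.83, 2.98 and 1.96. The other tested ovate genes did not pass the test. Of 5 tested, these 2 were called lower with limma and OFP16, OFP24 and OFP29 were not, with limma adjusted p of 0.32, 0.3 and 0.94, where 2.91% of all tested genes were lower.

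YABBY genes supplied 3 of the 109 by name. YAB5 (GRMZM2G116646) was at 83.7, 173 and 88.7 in the wildtype pools against 21.4, 30.8 and 20.5 in Bif1;Bif4. For yab9 (GRMZM2G074543) the values were 120, 279 and 107 against 29.2, 47.7 and 15.7. For yab14 (GRMZM2G005353) they were 95.8, 466 and 41.3 against 12.6, 37.7 and 15.7. All 3 were highest in wildtype replicate 2, and in yab14 the groups were separated only narrowly, with the lowest wildtype value 1.09 times the highest Bif1;Bif4 value. Without wildtype replicate 2, 28.1% of YAB5, 27.1% of yab9 and 32.1% of yab14 remained, in place of 21.1%, 18.3% and 11%.

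DL1 (GRMZM2G088309), whose name is that of the DROOPING LEAF type of YABBY gene, was also highest in wildtype replicate 2. It was at 161, 732 and 86.6 in the wildtype pools against 16.5, 20.9 and 20.5 in Bif1;Bif4. The share that remained was 5.91%, or 15.6% without wildtype replicate 2. Of 8 tested genes of the YABBY list, which does not hold DL1, 4 were called lower, none was higher and 4 were not called, where 2.91% of all tested genes were lower. Outside the 109 those called were yabby15, left out by name, and yab10 (log2 fold change -1.82, SE 0.32, limma adjusted p = 0.02). The 4 not called were yab14, which is among the 109, and YAB3, YAB6 and YAB11, which are not. For YAB3, YAB6 and YAB11 the log2 fold changes were -0.92, -0.05 and -0.06 (limma adjusted p = 0.12, 0.97 and 0.97). DL1 was not called either.

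CUC2 (GRMZM2G393433), also named nam1, is the NAC gene of organ boundaries. Its normalized counts were 730, 1344 and 787 in wildtype and 189, 127 and 268 in Bif1;Bif4. The lowest wildtype value was 2.72 times the highest Bif1;Bif4 value, and 20.4% of the wildtype mean remained. It was the only gene of the boundary NAC list in the table.

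The WOX3 homeobox gene ns1 (narrow sheath1, GRMZM2G069028) is known to recruit founder cells at the leaf margin. It was at 50.6, 42.1 and 44.4 in the wildtype pools against 1.94, 4.97 and 9.78 in Bif1;Bif4. Its wildtype libraries were close together, and the rule requires all of them to stand above every Bif1;Bif4 library. RefSeq gives the WOX3A name to HB82 (GRMZM2G122537) as well. HB82 was at 303, 333 and 354 against 125, 104 and 211, a log2 fold change of -1.22 (SE 0.25, limma adjusted p = 0.032). Whether reads were split between ns1 and HB82 was not tested, as no sequence was used. Of 7 tested genes in the list of other homeobox factors 3 were called lower, ns1, HB82 and wox9C (log2 fold change -1.42, SE 0.24, adjusted p = 0.017), and none was higher, where 2.91% of all tested genes were lower.

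HB127 (GRMZM2G119999), a further homeobox gene outside that list, was at 57.3, 47.6 and 97 against 14.6, 1.99 and 10.8. The MADS box gene zmm6 (GRMZM2G159397) was at 38.5, 73.2 and 60.9 in the wildtype pools against 5.83, 4.97 and 13.7 in Bif1;Bif4. It was 1 of 17 tested MADS box genes, of which 5 were called lower and 3 higher. EREB93 (GRMZM2G066158), of the AP2/ERF family, was at 85.9, 228 and 77.4 against 29.2, 22.8 and 16.6, and was the only gene called in either direction among 25 tested of its list. MYBR113 (GRMZM2G001106), a MYB-related gene, was at 61.7, 108 and 59.8 against 8.75, 7.95 and 7.83. Of 33 tested MYB genes 2 were called lower and 2 higher, where 2.91% of all tested genes were lower and 2.13% higher.

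**Figure D5:**
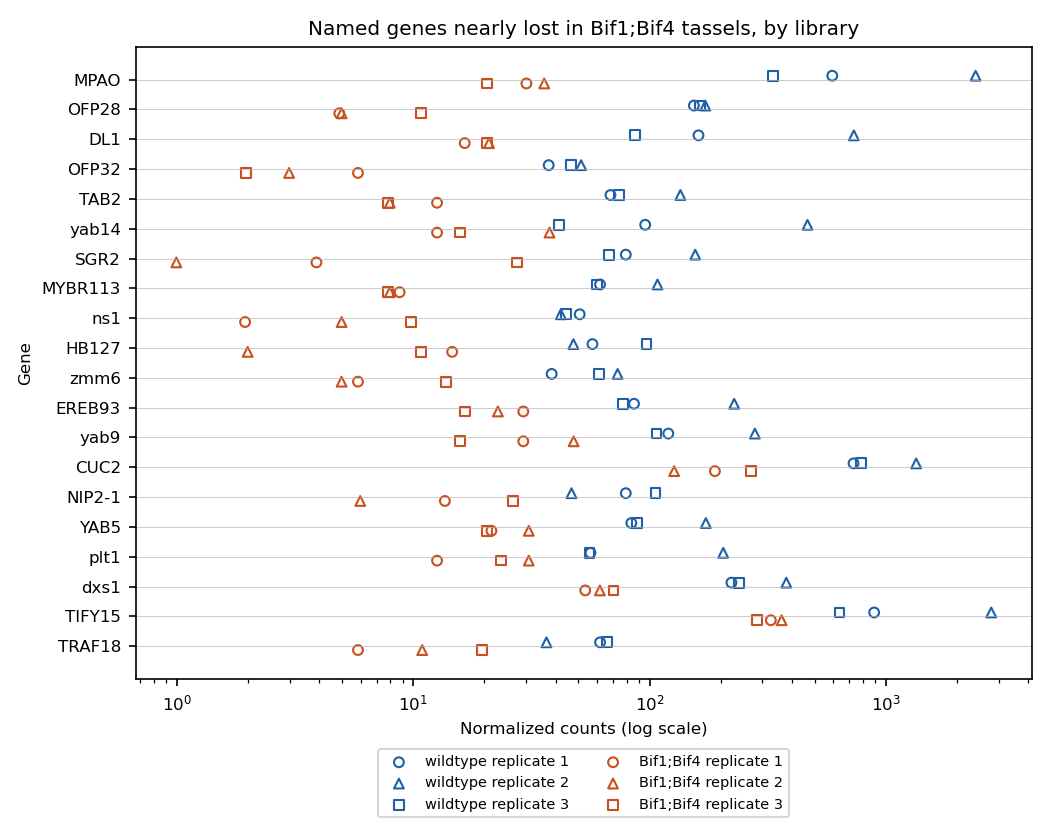
Normalized counts (x axis, log scale) of the 20 named genes in each library, ordered by F from the top. Circles, triangles and squares are replicates 1, 2 and 3. Groups are separated in every gene by the rule, by 14.3 times in OFP28 and by 1.09 times in yab14, and the wildtype triangle is the highest point for MPAO, DL1, yab14 and TIFY15 among others.

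Enzymes and transport proteins made up another part of the named genes. MPAO (GRMZM2G034152), an oxidase of polyamines in the cell wall that releases hydrogen peroxide, was at 593, 2398 and 332 in the wildtype pools against 30.1, 35.8 and 20.5 in Bif1;Bif4. Of its wildtype mean 2.6% remained, and 6.22% without wildtype replicate 2. Its lowest wildtype value was 9.29 times its highest Bif1;Bif4 value. The gene dxs1 (GRMZM2G137151), for the first enzyme of plastid isoprenoid synthesis, was at 222, 379 and 239 against 53.4, 61.6 and 70.4. NIP2-1 (GRMZM2G028325), also named Lsi1, encodes a channel for silicon uptake. It was at 79.3, 46.7 and 106 in the wildtype pools against 13.6, 5.96 and 26.4 in Bif1;Bif4, and was lowest in wildtype replicate 2.

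The phospholipid transfer protein gene plt1 (GRMZM2G101958) was at 56.2, 205 and 55.7 in the wildtype pools against 12.6, 30.8 and 23.5 in Bif1;Bif4, so that 39.9% remained without wildtype replicate 2. TIFY15 (GRMZM2G005954), of the family that holds the JAZ repressors of jasmonate signalling, was at 892, 2793 and 636 against 326, 362 and 284. It too depended on that library, with 42.3% remaining without it and 22.5% with it. SGR2 (GRMZM2G091837) was at 79.3, 156 and 67.1 in the wildtype pools against 3.89, 0.993 and 27.4 in Bif1;Bif4, where replicate 3 stood well above the others.

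TAB2 (GRMZM2G081955) was at 68.3, 135 and 74.3 in the wildtype pools against 12.6, 7.95 and 7.83 in Bif1;Bif4. TRAF18 (GRMZM2G060723), named for a TRAF domain, was at 61.7, 36.6 and 66 against 5.83, 10.9 and 19.6. By the rule the groups do not overlap in either gene, and they were apart by 5.4 times for TAB2 and 1.87 times for TRAF18. TRAF18 and NIP2-1 were the named genes among the 17 where both other wildtype libraries exceeded replicate 2 by at least 25%.

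Other genes with many reads have no name. GRMZM2G001139 was at 3922, 3979 and 3837 normalized counts in the wildtype pools against 893, 705 and 921 in Bif1;Bif4. GRMZM2G118490 was at 2288, 1633 and 2339 against 175, 194 and 202, with 9.11% of the wildtype mean left. GRMZM2G068330 was at 1244, 1485 and 1067 against 209, 143 and 225. Reads over the Bif1;Bif4 libraries came to 2570, 581 and 589 for these genes, and wildtype replicate 2 was at 0.706 to 1.28 times the mean of the others.

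GRMZM2G366873 was at 694, 708 and 673 against 129, 127 and 88.1, and GRMZM2G151044 at 709, 857 and 753 against 149, 145 and 145. The gene with the most reads, GRMZM2G136453, was of the other kind, at 3875, 12058 and 3553 in the wildtype pools against 1531, 1307 and 1790 in Bif1;Bif4. It had F over 0.25 without wildtype replicate 2, as did GRMZM2G142870, at 735, 2376 and 890 against 298, 198 and 244. GRMZM2G346920, close to the limit on F, was at 1146, 1618 and 1177 against 369, 270 and 325. GRMZM2G117854, also close to it, stood at 2317, 1667 and 1948 against 548, 463 and 451. The groups were apart in each of these genes by the rule. The wildtype high value was in replicate 2 except for GRMZM2G117854. Levels of different genes are not ranked here, since the counts are not corrected for gene length.

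The 109 can be parted by their behaviour in wildtype. In the 25 genes with wildtype replicate 2 at least 2 times both others, the median share that remained in Bif1;Bif4 was 16.6%, and 29.3% without that library. In the 17 where both others exceeded replicate 2 by at least 25% it was 16.8%, and 14.5% without it. In the remaining 67 it was 13.4% and 14.2%. The genes were parted by the height of replicate 2, so the direction of these shifts is fixed by the split. Wildtype libraries agreed to within a coefficient of variation of 15% for 19 genes, among them OFP28 and ns1, and a median of 13.7% remained there. Among Bif1;Bif4 libraries, replicates 1, 2 and 3 were the highest for 42, 30 and 37 genes and the lowest for 31, 50 and 28.

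In the authors' deposited table, 98 of the 109 genes have an adjusted p under 0.05 and a negative log2 fold change. Its log2 fold changes run from -3.11 to -0.36 with a median of -1.50. These are not on the scale of F or of the limma values, although the counts are the same. MPAO has -0.82 there against -4.74 with limma, while GRMZM2G118490 has -3.09 against -3.43. The smaller size is therefore not read as a weaker fall, and its cause was not tested. For 9 genes the authors' deposited table gives no p, and in these wildtype replicate 2 was 3.23 to 12.7 times the mean of the other wildtype libraries. The remaining 2, yab14 and SGR2, have adjusted p of 0.11 and 0.18 in the authors' deposited table.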

How the data were processed

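Messenger RNA was measured in 6 stranded libraries, 3 per genotype, with groups and replicate numbers from the sample titles. The tools named per the submitters' processing notes are HTSeq, DESeq2, Trimmomatic and TopHat2 (2.1.1). Genome build, annotation and strand setting were not given in the sources used here. The deposited table holds read counts divided by 1 size factor per library, treated as a signal, with the authors' mean, log2 fold change, Wald score and p-value. In each column 100.0% of values were whole multiples of a step within 1e-06 reads, so reads were recovered, in all 21047225 to 24636859 per library. A count of 0 allows up to 3 reads, or 2.75 to 3.3 normalized counts.

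Genotypes were compared with limma (3.58.1, trend and robust options) on log2(value + 1), for genes with at least 10 in at least 3 libraries, two-sided with Benjamini-Hochberg adjustment over 21924 genes. Fold changes on this scale understate those of low genes. It was tested on simulated data. Alternatives were edgeR 4.0.16 and DESeq2 1.42.0 on recovered reads, the replicate block, other settings and each library left out. The labels do not say whether pools were grown separately, so p-values measure the spread between pools. Members, lists and the rule for named genes were chosen with earlier results of these data known. Named are all members with an informative RefSeq symbol, those with the lowest F or highest wildtype mean, and those at the limit; neighbouring genes, GRMZM2G366873 and GRMZM2G151044 were chosen after their values were seen. Of the members 77 match a RefSeq gene, all protein coding, and 32 match none. Lists were matched on RefSeq symbols and synonyms only. Lists without a member are not described.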

Additional observations from a re-analysis of the deposited data

How the results depend on the processing

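The rule kept 109 genes, 110 with TMM scaling, 111 with a pseudocount of 0.5 in F, 113 if groups may overlap and 158 with a wildtype minimum of 10. A minimum of 100 left 50 and a limit on F lowered by 50% left 40, both by construction. With 1 library fewer the rule kept 90 to 140 genes. Over all genes, 637 were lower and 467 higher in Bif1;Bif4, and DESeq2 called 1117 lower and 1001 higher; the cause was not tested. With 1 library fewer, 282 to 627 genes were lower and 167 to 776 higher. The 776 came without wildtype replicate 2 and the 627 as well; without any other single library 368 or fewer were lower. Called genes among the 109 were 93, and 76 to 98 with a library left out, 89 with edgeR and 108 with DESeq2. Lower calls in the lists that hold any of the 109 were 19, and 10 to 20 with a library left out (10 without wildtype replicate 1 or Bif1;Bif4 replicate 1, 12 without wildtype replicate 3 or Bif1;Bif4 replicate 2). Over all tested genes 2.91% were lower. The count of 19 includes genes of the 109, which the rule chose as low, so nothing is read from it. With the replicate block 429 genes were lower and 381 higher, and 90 of the 109 were called. Correlations of deviations between libraries of the same number were 0.07, -0.17 and -0.03, and between different numbers they ran from -0.31 to 0.26. Deviations from the mean of 3 libraries are not independent, so these values do not settle whether libraries were paired by number. Of 39 named genes 31 were called; their direction is fixed by the rule. Without wildtype replicate 2, 5 more were called, and without wildtype replicate 1 or 3, 7 were lost. The read floor of about 3 normalized counts leaves the Bif1;Bif4 level of 9 genes unresolved.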

Other observations

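A further 49 genes met the same conditions except that their lowest wildtype value was from 10 to under 30 normalized counts, and 6 of them are named. Hormone enzymes were among these. MAX1b (GRMZM2G023952), of the cytochrome P450 kind that makes strigolactones, was at 57.3, 23.8 and 61.9 in the wildtype pools against 11.7, 4.97 and 16.6 in Bif1;Bif4. Dwf4 (GRMZM2G065635), a brassinosteroid synthesis gene by its name, was at 11, 23.8 and 36.1 against 6.8, 1.99 and 2.94. Both were low, and MAX1b was lowest in wildtype replicate 2.

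Cel20 (GRMZM2G453565), a cellulase, was at 28.6, 99.8 and 36.1 in the wildtype pools against 3.89, 2.98 and 1.96 in Bif1;Bif4. The expansin gene expa1 (GRMZM2G339122) was at 15.4, 97.9 and 12.4 against 6.8, 11.9 and 9.78, and its groups were close. In both Cel20 and expa1 wildtype replicate 2 stood well above the other wildtype libraries. PR10 (GRMZM2G112524) and the globulin gene glb2 (GRMZM2G026703) stood at F of 0.216 and 0.238. These genes were chosen by the direction of their change, so no test is given.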
